A study of Mus musculus with 8 samples.

Results

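Monocytes at the cortical injury site were examined in single-cell RNA sequencing of mouse brain 6 days after photothrombotic injury (PT). They were chosen from measured values, as droplets in which at least 3 of the 5 genes Ly6c2, Ccr2, Chil3, Plac8 and F10 were detected, in which Ly6c2, Chil3 and Plac8 together reached 3 UMIs per 10000 and the myeloid gene Tyrobp reached 2, and in which genes of microglia, dendritic cells, neutrophils, lymphoid cells and fibroblasts stayed under fixed limits. A UMI is a molecular tag that marks 1 captured transcript. The rule found 966 monocytes among 46216 droplets with at least 2000 UMIs and under 20% mitochondrial UMIs, which is 2.09% of them.

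PT was induced with rose bengal and light, which clots cortical vessels and leaves a lesion 4 mm wide. The 4 control mice received saline, and the 4 ancrod mice received 2.4 U ancrod per day, in both groups from osmotic minipumps implanted 2 days before PT. Ancrod is a snake venom enzyme that depletes fibrinogen, the plasma protein that leaks from injured vessels and is deposited as fibrin. Mice were perfused, the meninges were removed, and the lesion with 1 mm of spared tissue was dissociated without any sort, so each library held all cell types of the tissue apart from what red cell lysis and myelin beads took away. The sample labels give female mice of strain Bl/J6 and the series text C57Bl/6J, but the methods of the study give both sexes of C57BL/6N. Each mouse gave 1 library. Replicates 1 to 3 of each group formed batch 1 and replicate 4 of each group formed batch 2, for injury and for sequencing alike.

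Monocytes are made in the bone marrow and circulate in blood. Classical monocytes carry Ly6C and the chemokine receptor CCR2, follow CCL2 into injured tissue and can there become macrophages or cells that present antigen, whereas non-classical monocytes carry little Ly6C, depend on the nuclear receptor NR4A1 and patrol the vessel wall. After brain injury such blood-derived cells lie beside microglia, the resident macrophages of the brain, and many of their genes are shared.

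The 5 marker genes lie on different chromosomes of GRCm39. Ly6c2, which encodes the surface protein Ly6C2, lies at chr15:74980003-74988467 on the minus strand. Ccr2, the receptor for CCL2, lies at chr9:123901982-123913594 on the plus strand. Chil3, which encodes the chitinase-like protein Ym1, lies at chr3:106054870-106074880 on the minus strand. Plac8 lies at chr5:100701591-100720111 on the minus strand. F10, coagulation factor X, lies at chr8:13087293-13106676 on the plus strand.

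Ly6c2 has a near copy, Ly6c1, at chr15:74915847-74920686 on the same strand, a gene of endothelial cells in brain. Their coding sequences hold 396 bases each, of which 387 are identical and 9 differ (97.7% identity). The first 300 coding bases of each are shown, 5′ to 3′, because Ly6c2 is a marker gene of the rule and Ly6c1 is not. The capitals mark the 7 bases that differ in this stretch (GENCODE annotation of GRCm39).
Ly6c2: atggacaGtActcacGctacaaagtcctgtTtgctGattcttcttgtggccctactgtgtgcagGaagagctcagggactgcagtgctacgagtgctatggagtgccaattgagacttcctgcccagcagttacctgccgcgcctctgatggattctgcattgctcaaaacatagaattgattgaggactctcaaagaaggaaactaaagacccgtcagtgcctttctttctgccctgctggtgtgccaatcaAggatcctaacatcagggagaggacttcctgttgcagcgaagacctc
Ly6c1: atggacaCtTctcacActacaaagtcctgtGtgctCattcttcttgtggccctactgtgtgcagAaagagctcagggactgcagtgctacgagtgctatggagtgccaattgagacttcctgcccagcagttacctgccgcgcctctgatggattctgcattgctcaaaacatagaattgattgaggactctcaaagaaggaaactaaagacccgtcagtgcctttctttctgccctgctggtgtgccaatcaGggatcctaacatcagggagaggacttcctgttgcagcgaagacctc
In the last 300 bases of the transcripts, where 3′ libraries collect most reads, 294 bases were identical, so some reads may not be assignable to 1 of these genes. Ly6c1 was detected in 97.1% of 7175 endothelial cells, and Ly6c2 in 1.16% of them. Monocytes had Ly6c2 in 77.6% of cells, a share that the rule partly fixed, and Ly6c1, which the rule did not use, in 4.66%.

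The control libraries held 97861434 to 122758649 UMIs in all and the ancrod libraries 126682918 to 142139441, so the groups did not overlap in this total. Monocytes held 16824.5 UMIs at the median (2319 to 94613). Per mouse the median ranged from 12955 to 17553 UMIs in control and from 15336 to 18057 UMIs in ancrod mice, with overlap. Median mitochondrial shares were 2.48% to 3.43%. Infiltrating macrophages, gated on Ms4a7, Arg1, Gpnmb, Fabp5 and Lgals3, held 25718 to 34495 UMIs per cell at the median of a mouse. Any pair of libraries shared 3 to 15 barcodes of kept droplets. None of these barcodes was gated as a monocyte in both libraries of a pair (0 of 278). Control 1 gave 25 monocytes, the fewest of any mouse, and ancrod 1 gave 274, the most.

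The 5 marker genes chose the cells, so their levels are a description. Across the 8 mice the levels in CPM, the UMIs of a gene per 1000000 UMIs of the class, ranged from 294 to 752 for Ly6c2, from 397 to 778 for Ccr2, from 1252 to 2066 for Plac8 and from 217 to 327 for F10. Chil3 varied most, from 434 to 2260. In control 1 to 4 Chil3 stood at 735, 1282, 722 and 2260 CPM, and in ancrod 1 to 4 at 1220, 479, 434 and 492 CPM. The groups overlapped, with ancrod 1 inside the control range and the other ancrod mice below it.

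**Figure D1:**
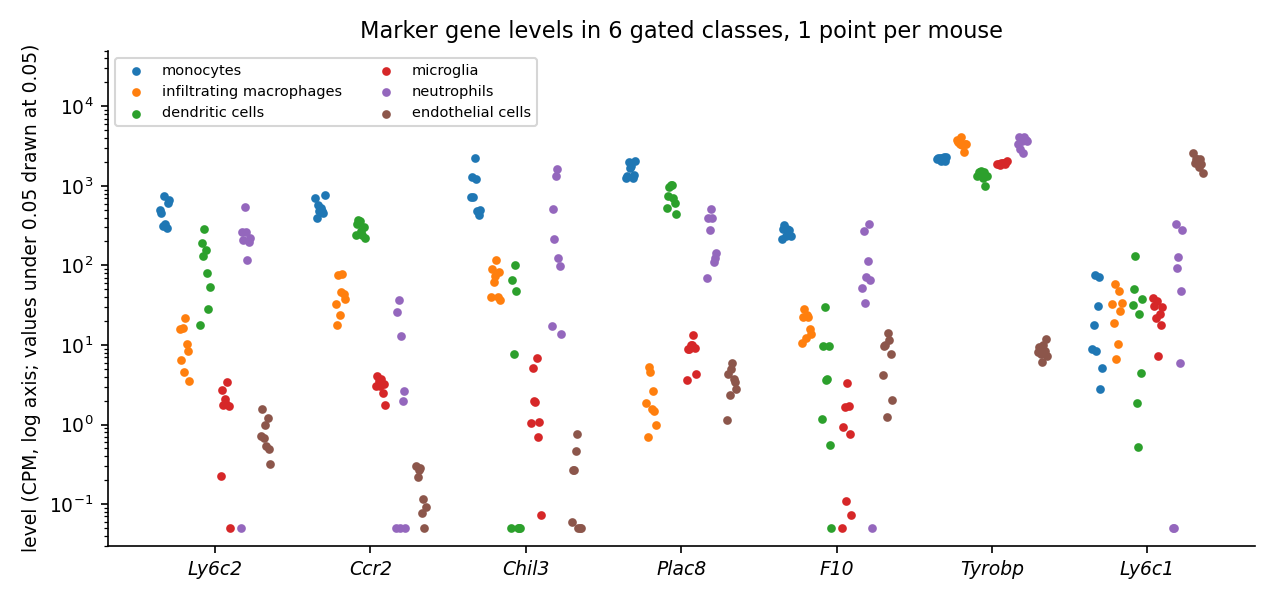
Levels of the 5 marker genes, of Tyrobp and of Ly6c1 (CPM, log axis) in 6 gated classes, 1 point per mouse. Monocytes lie above macrophages for all 5 marker genes, dendritic cells come nearest for Ccr2 and Plac8, and Ly6c1 is highest in endothelial cells, with a mean of 2017 CPM.

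No single marker set monocytes apart from every other class. Ccr2 was detected in 88.6% of monocytes, 69.3% of 521 dendritic cells and 18.4% of 1918 infiltrating macrophages. Plac8 showed the same pattern, at 85.8%, 66.0% and 3.81%. Chil3 was detected in 80.6% of monocytes and 44.5% of macrophages but in 1.92% of dendritic cells. F10 was detected in 82.0% of monocytes, 24.6% of macrophages and 3.26% of dendritic cells. Neutrophils held UMIs of Ly6c2, Chil3, Plac8 and F10 in 21.7% to 34.9% of 650 cells. Microglia gave a background share of 0.450% to 3.53% for the 5 genes, and endothelial cells one of 0.334% to 6.87%, at median depths per mouse of 8676 to 20598.5 UMIs in endothelial cells. Genes of classical monocytes that the rule did not use followed the label. Ifitm6 was detected in 54.6% of monocytes and 2.82% of macrophages, and the matrix proteoglycan Vcan in 47.4% and 5.68%.

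Of the 966 cells, 245 had 3 of the 5 markers, 334 had 4 and 387 had all 5. Just inside the limit on the summed level, 47 cells lay between 3 and 4 UMIs per 10000, and 3 cells held Tyrobp between 2 and 3. Just outside, 158 droplets met every other limit with 2 markers detected, and 54 had 3 markers but a sum between 2 and 3.

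Markers of other cells were low but present. The summed level of 7 microglial genes was 566 to 931 CPM in control and 608 to 830 CPM in ancrod monocytes, against 7465 to 8898 CPM in microglia. Summed dendritic cell genes reached 15.1 to 48.2 CPM against 535 to 852 CPM in dendritic cells, and summed neutrophil genes 117 to 247 CPM against at least 4942 CPM in neutrophils. The summed level of 5 endothelial genes stood at 80.3, 94.1, 634 and 142 CPM in control 1 to 4 and at 224, 637, 55.6 and 36.1 CPM in ancrod 1 to 4, so that control 3 and ancrod 2 stood apart from the other mice. The summed level of 5 astrocyte genes stood at 23.8, 148, 29.0 and 38.6 CPM in control 1 to 4 and at 99.5, 305, 95.5 and 107 CPM in ancrod 1 to 4. Every ancrod mouse lay above 3 of the 4 control mice, and the group medians were 33.8 and 103 CPM. Of 5 T, NK and B cell genes measured the sum stayed at or below 16.8 CPM, and the oligodendrocyte gene Mog and the platelet gene Gp9 were at 0 in every mouse.

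The design first asks whether fibrinogen depletion changed how many monocytes were recovered. Monocytes made up 0.435%, 2.21%, 3.81% and 1.64% of kept droplets in control 1 to 4 and 4.63%, 1.34%, 1.60% and 0.709% in ancrod 1 to 4. The lowest share was in a control mouse and the highest in an ancrod mouse, with the groups overlapping throughout. Control mice averaged 2.02% ± 1.40 and ancrod mice 2.07% ± 1.75 (SD, n = 4 each), which is 0.048 percentage points apart and smaller than the spread between mice (two-sided exact permutation test, p = 1, where 70 arrangements allow 0.0286 at the least). Within batch 1 ancrod mice were 0.374 points higher and within batch 2 the single ancrod mouse differed from its control by -0.929 points.

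Set against the macrophages, monocytes were 15.1%, 42.4%, 43.9% and 36.5% of both classes together in control 1 to 4. In ancrod 1 to 4 they were 46.1%, 24.8%, 22.8% and 12.5%. Control 1 and ancrod 1 lay on the far side of their groups, so the ranges overlapped. The means of 34.5% ± 13.3 and 26.5% ± 14.1 (SD, n = 4 each) did not differ beyond the spread (difference -7.94 points, exact permutation p = 0.429), with differences of -2.59 points within batch 1 and -24.0 points within batch 2. The macrophage share of kept droplets was 3.29% ± 1.07 in control and 4.96% ± 0.656 in ancrod mice (SD, n = 4 each, exact permutation p = 0.0571), so the denominator itself was higher in ancrod mice by an amount that missed the threshold. A share of dissociated cells also depends on how well each cell type is released from the tissue, and this cannot be told apart here from cell number in the lesion.

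**Figure D2:**
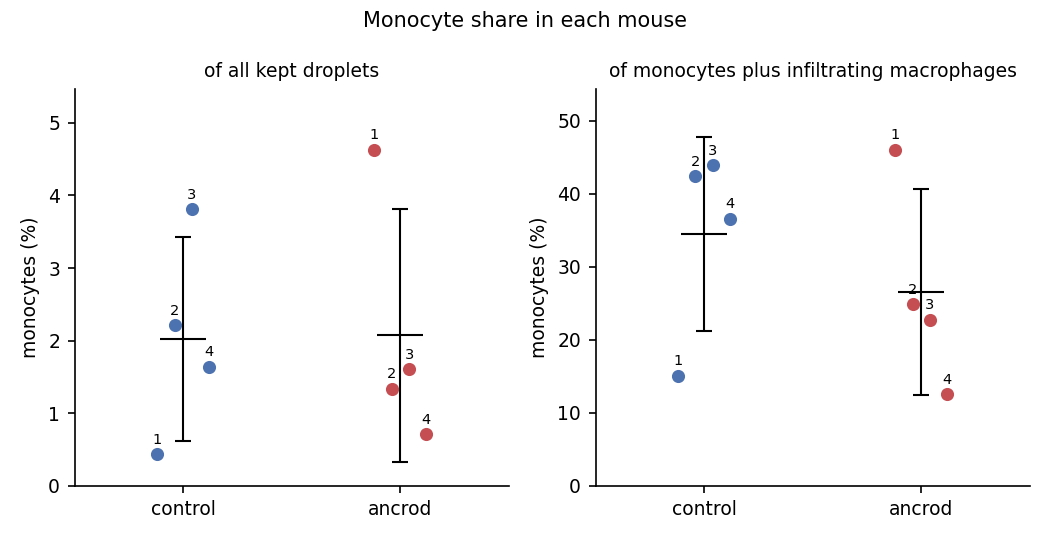
Monocyte share of all kept droplets (left) and of monocytes plus infiltrating macrophages (right), in percent, 1 numbered point per mouse with group mean and SD (n = 4). Control 1 lies low and ancrod 1 high in both panels, and the groups overlap, with means of 2.02% and 2.07% on the left.

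Monocytes were then described by 5 expression ranges, each a count of detected genes from a fixed list after every cell was thinned to 2000 UMIs. A range is not a cell type, cells near its limit are common, and a cell can fall in more than 1. The MHC class II range, with at least 3 of Cd74, H2-Aa, H2-Ab1 and H2-Eb1, held 309 cells (32.0%). The range of macrophage genes, with at least 4 of 9 genes such as C1qa, Apoe and Gpnmb, held 269 cells (27.8%). The non-classical range, with at least 2 of Ace, Treml4, Spn, Eno3, Adgre4, Nr4a1 and Pglyrp1, held 161 cells (16.7%). The interferon range held 43 cells (4.45%) and the dividing range 20 cells (2.07%), while 341 cells (35.3%) were in none of the 5. The limits cut through a gradient, since 175 monocytes lay 1 gene short of the macrophage range, against 91 exactly at its limit, and 366 lay 1 gene short of the non-classical range, against 70 at its limit.

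The non-classical and macrophage ranges shared 11 cells (1.14% of monocytes). The MHC class II range shared 86 cells (8.90%) with the macrophage range and 54 (5.59%) with the non-classical range. Such counts depend on the size of each range, and the MHC class II range was the largest, with 309 cells. Whether ranges met more or less often than their sizes give was not tested. Among infiltrating macrophages thinned in the same way, 94.6% to 99.3% per mouse were in the macrophage range and 0% to 1.67% in the non-classical range. Gpnmb and Arg1 belong both to the macrophage range and to the genes that gated the macrophages, so the first share is partly fixed by the gate. The MHC class II range held 23.0% or more of monocytes in every mouse and 5.39% to 17.2% of macrophages.

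None of the 5 ranges differed between the groups beyond the spread of the mice (exact permutation p of 0.343 to 0.914, Benjamini-Hochberg adjusted over the 5 from 0.786 to 0.914). The non-classical range held 4.00%, 17.9%, 22.2% and 28.6% of monocytes in control 1 to 4, and 11.7%, 8.86%, 14.1% and 16.7% in ancrod 1 to 4. Control 1, with 1 of 25 cells in the range, lay below all ancrod mice in this random draw of the thinning. In 20 other draws it held 8% to 32% with a mean of 21.2%, so its value, and its place among the mice, rested on the draw. Over these draws, a setting added after the data were seen, the means were 22.4% ± 5.27 in control and 15.99% ± 6.05 in ancrod mice (SD, n = 4 each, exact permutation p = 0.2, adjusted 0.786 over the 5 ranges). In the first draw the means were 18.2% ± 10.4 and 12.8% ± 3.34 (SD, n = 4 each, exact permutation p = 0.343). In that draw, without control 1 the difference was -10.04 points, with an exact permutation p adjusted to 0.143, without control 4 it was -1.85 points, and without thinning the range held 56.0% to 65.9% of control and 36.7% to 55.6% of ancrod monocytes, which did not overlap (exact permutation p = 0.0286, adjusted 0.143 over the 5 ranges).

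Dividing cells came mostly from 1 mouse. They made up 0%, 1.63%, 0.418% and 1.10% of monocytes in control 1 to 4 and 0.365%, 0%, 14.1% and 2.78% in ancrod 1 to 4. Ancrod 3 supplied most of the 20 cells, and the count of 0 allows a share of up to 12% in control 1 and up to 3.8% in ancrod 2. The interferon range held 16.5% of monocytes in control 4 and 0% to 7.59% elsewhere, and the 0 of 25 in control 1 again allows up to 12%. The MHC class II range held 60.0%, 29.3%, 31.0% and 45.1% in control 1 to 4 and 23.0%, 45.6%, 27.3% and 47.2% in ancrod 1 to 4. The macrophage range held 32.0%, 32.5%, 22.2% and 29.7% in control 1 to 4 and 30.3%, 36.7%, 24.2% and 13.9% in ancrod 1 to 4. In both the groups overlapped.

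**Figure D3:**
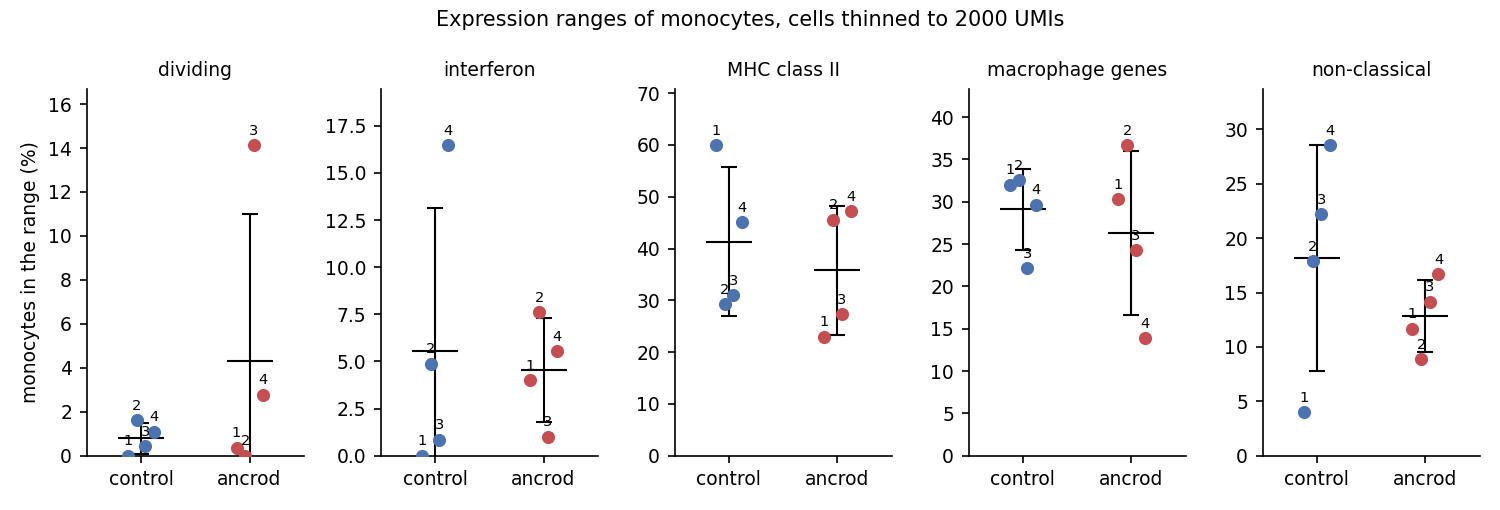
Share of monocytes in each of 5 expression ranges (percent, cells thinned to 2000 UMIs in 1 random draw), 1 numbered point per mouse with group mean and SD (n = 4, lower ends cut at 0). Ancrod 3 stands alone in the dividing range at 14.1% and control 4 in the interferon range at 16.5%, while the other 3 ranges overlap between groups.

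The ranges differed in genes that did not define them. These levels are pooled over cells of all mice, describe the same cells that were divided, and carry no test, and the genes were chosen after their values had been seen. In the non-classical range the eosinophil-associated ribonuclease Ear2 stood at 221 CPM against 19.8 CPM outside it, higher inside in 8 of 8 mice. Control 1 had only 1 cell in the range, ancrod 4 had 6 and ancrod 2 had 7. The adhesion gene Ceacam1 stood at 136 against 17.1 CPM, the activating receptor Cd300e at 71.1 against 2.21 CPM, the phosphatase gene Dusp16 at 589 against 76.7 CPM and the nuclear receptor Pparg at 380 against 117 CPM. Ly6c2, a gene of the rule, was at 173 CPM inside and 468 CPM outside, and a cell with little of it could enter only through other genes of the rule. Spp1, which encodes osteopontin, stood at 431 CPM inside and 11287 CPM outside, and the chemokine gene Ccl7 at 3.99 and 272 CPM. Plac8, also a gene of the rule, was at 3154 CPM inside and 1421 CPM outside. The endothelial gene Cldn5 was at 314 CPM inside and 42.7 CPM outside but higher inside in 3 of 8 mice, with 574 CPM in control 3 and 1588 CPM in ancrod 2, the mice with the highest endothelial sums, and the part of this in the range was not tested. Ear2 belongs to a family of near-identical genes, so its value is uncertain.

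In the macrophage range the lysosomal protease gene Ctsd stood at 4435 CPM against 827 CPM outside, the tetraspanin Cd63 at 827 against 98.2 CPM, the Fc receptor-like gene Fcrls at 142 against 5.74 CPM and the chemokine Pf4 at 323 against 25 CPM. Vcan was at 43.8 CPM inside and 244 CPM outside. Of the genes that chose the cells, Plac8 was at 490 CPM inside and 2213 CPM outside, Ccr2 at 313 and 610 CPM and Ly6c2 at 366 and 456 CPM.

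In the MHC class II range the peptide-loading gene H2-DMb1 stood at 389 CPM against 50.1 CPM outside and Ciita, which encodes the master regulator of class II genes, at 42.5 against 4.49 CPM. Il1b, the cytokine interleukin-1β, was at 1032 against 476 CPM. Lower inside were Prtn3, a neutrophil-type protease, at 7.91 against 49.8 CPM, Slpi, a protease inhibitor, at 10.8 against 121 CPM and Hp, haptoglobin, at 85.5 against 275 CPM. Chil3, a gene of the rule, was at 604 against 1199 CPM.

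The smaller ranges rested on few mice. In the dividing range Hmgb2, a chromatin protein, stood at 2836 CPM against 176 CPM outside, Prtn3 at 378 against 21.4 CPM and Ly6c2 at 905 against 405 CPM, with higher levels of Prtn3 and Ly6c2 inside in 4 of 6 mice that held such cells. In the interferon range the chemokine gene Cxcl10, higher inside in 6 of 7 mice, stood at 866 against 10.2 CPM, and Ly6c2 at 1254 against 386 CPM. Ly6c2 is a gene of the rule. Control 4 held 15 of the 43 cells of the range and had the highest Ly6c2 over all monocytes of a mouse, 752 CPM. The part of this mouse in the pooled level was not tested. The acute phase gene Saa3 stood at 5777 against 30 CPM but was higher inside in 3 of 7 mice, with 16383 CPM in control 4.

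Infiltrating macrophages were compared with monocytes first, and the comparison gives the genes in which they differ. The gate placed each cell by its own genes, so the calls describe how the gated classes separated and are no independent test of the classes. Genes used by either gate were left out of the counts. Monocytes and macrophages were summed per mouse and compared with the mouse as a block in edgeR. Of 11203 genes tested, 2945 (26.3%) were higher and 3057 (27.3%) lower in monocytes at a Benjamini-Hochberg adjusted p under 0.05. Levels here are CPM on normalised library sizes.

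Adgre4, an adhesion receptor of the F4/80 family, had a lowest, median and highest mouse of 59.9, 79.7 and 191 CPM in monocytes and of 0, 0.358 and 2.14 CPM in macrophages (log2 fold change 7.18, SE 0.28, edgeR adjusted p = 2.5e-09). Ifitm6, an interferon-induced membrane protein, stood at 73.5, 114 and 195 CPM in monocytes against 0.620, 0.868 and 2.25 CPM in macrophages (log2 fold change 6.54, SE 0.14, edgeR adjusted p = 3.4e-11). Vcan, the proteoglycan versican, stood at 98.0, 138 and 253 CPM against 1.82, 2.67 and 14.6 CPM (log2 fold change 5.26). In all 3 genes every monocyte sum lay above every macrophage sum. Others of the 10 largest were Gm9733, Mcemp1, Klra2, which belongs to a family of near copies, Gpr141, Cd244a, and the leukocyte integrin subunits Itgb7 and Itgal, with log2 fold changes of 6.67, 5.48, 4.06, 4.05, 3.87, 3.58 and 3.38.

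The 10 largest the other way were Ccl8, Epb41l3, Npl, Fcrls, Gas6, Samd4, Cela1, Cd5l, Gm1673 and Folr2, with log2 fold changes from -5.02 to -3.61. Fcrls, a gene of microglia and other tissue macrophages, stood at 20.7, 42.5 and 69.8 CPM in monocytes and at 577, 643 and 772 CPM in macrophages. Gas6, a ligand that bridges phagocytes to dying cells, stood at 3.20, 13 and 31.1 CPM against 176, 219 and 263 CPM. Folr2, a folate receptor of resident macrophages, stood at 1.60, 5.18 and 16 CPM against 44.3, 94.7 and 137 CPM. The classes did not overlap in any of these. Summed as above, the 7 microglial genes reached 1577 to 2072 CPM in infiltrating macrophages, against 566 to 931 CPM in monocytes. The part of such content in these differences was not tested.

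Monocyte genes outside the rule were mostly higher in monocytes. Of 15 classical genes 12 were higher and 2 lower, with a median log2 fold change of 2.58 against -0.04 over all genes tested, and of 12 non-classical genes 10 were higher and 1 lower (median 2.77). Ms4a4c reached a log2 fold change of 3.05, Ifitm3 2.92 and Hp 2.72. Lyz2, lysozyme, went the other way at -1.55, and so did Mgst1 at -0.93. Among the non-classical genes Treml4 reached 5.03, Spn 4.18, Ace 3.95 and Nr4a1 0.74, while the fractalkine receptor Cx3cr1 was lower at -0.63, at 166 CPM in monocytes and 248 CPM in macrophages on average.

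Genes of macrophage differentiation were lower in monocytes. Of 15 tested without gate genes 14 were lower, with a median of -2.68. The complement genes C1qa, C1qb and C1qc had log2 fold changes of -3.39, -2.86 and -3.34. Apoe, the lipid carrier apolipoprotein E, had a lowest, median and highest level of 5029, 7224 and 10687 CPM in monocytes and 50680, 62799 and 88106 CPM in macrophages (log2 fold change -3.12). Spp1 spread far more widely, at 1309, 5209 and 16650 CPM against 18446, 46598 and 63858 CPM (log2 fold change -2.95). In both genes every monocyte sum lay below every macrophage sum.

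The 18 transcription factor genes divided, with 8 higher and 5 lower in monocytes, the lower count near the 27.3% of all genes called lower. Cebpb, Irf5, Spi1, Zeb2, Nr4a1, Nr1h3, Irf4 and Pparg were higher, with Pparg at a log2 fold change of 2.14 and Cebpb at 1.25. Maf was lower at -1.24, Klf2 at -1.21, Cebpa at -1.19, Irf8 at -0.83 and Klf6 at -0.29. Cell cycle genes were higher in none and lower in 7 of 12 (median -1.14).

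All 10 genes of MHC class II and costimulation were higher in monocytes than in macrophages, with a median log2 fold change of 1.71. Cd74, the invariant chain, had a lowest, median and highest level of 1670, 3234 and 4904 CPM in monocytes and 485, 752 and 1348 CPM in macrophages. Ciita reached 3.05 and the costimulator Cd80 2.02, while Cd86 stood at 0.42. Of 15 receptors for patterns, antibodies and scavenged material 11 were higher and none was lower, with the receptors Trem3 at 3.99, Clec4e, which encodes Mincle, at 2.47 and Trem1 at 1.56.

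Cytokine genes split evenly, with 7 higher and 8 lower of 19. Il1b averaged 685 CPM in monocytes and 139 CPM in macrophages (log2 fold change 2.28), and the decoy receptor Il1r2 (2.48), the receptor antagonist Il1rn (1.61), Ccl9 (2.57), Ccl6 (2.08) and Ccl2 (0.97) were also higher. Il1a (-2.04), Tnf (-1.11), Il10 (-1.48), Ccl3 (-2.15) and Ccl4 (-1.40) were lower. The inflammasome gene Nlrp3 was higher by 0.35. Of 14 interferon response genes 6 were higher and 1, Bst2, was lower, with a median of 0.38.

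Genes of recruitment were higher in 13 of 18, among them the chemokine receptor Ccr1 (2.72), the integrin subunits Itgal (3.38), Itga4 (1.44), Itgam (0.81) and Itgb2 (0.70), and the hyaluronan receptor Cd44 (1.51). Cx3cr1 and the egress receptor S1pr1 (-1.65) were lower. Of 16 genes for receptors of fibrinogen and the signalling next to them 10 were higher and 2, Itgav (-1.05) and Fcer1g (-0.51), were lower. Itgam and Itgb2 encode the subunits of Mac-1, a receptor for fibrin. Itgam stood at 210, 232 and 280 CPM in monocytes against 115, 135 and 155 CPM in macrophages, and the kinase gene Fgr at 135, 190 and 244 CPM against 25.3, 31.5 and 41.6 CPM (log2 fold change 2.55).

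Of 15 coagulation and fibrinolysis genes 6 were higher and 6 lower. Higher were F5, coagulation factor V (3.01), S100a10 (2.09), Thbd, thrombomodulin (1.59), Thbs1, thrombospondin 1 (1.31), Plaur, the urokinase receptor (1.05) and Anxa2 (0.80). Among the lower genes were F13a1, which encodes the subunit of factor XIII that crosslinks fibrin (-0.80), F3, tissue factor (-1.19), Tfpi, its inhibitor (-1.54), F7 (-0.64) and Plgrkt (-0.62). F13a1 had a lowest, median and highest level of 233, 415 and 468 CPM in monocytes and of 423, 681 and 754 CPM in macrophages, with some overlap between classes though lower in monocytes in every mouse. Of 16 genes for ligands of fibroblast receptors 4 were higher, Fn1 (1.91), Thbs1, Il1b and Tgfb1 (0.85), a count near the 26.3% of all genes called higher. In the same list 6 were lower, with Igf1 at -3.38, Apoe and Spp1 as above, Grn at -1.43, Pdgfb at -1.07 and Osm at -0.62.

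Among the remaining lists, glycolysis and hypoxia genes were higher in 6 and lower in 5 of 18 (Pfkp 1.33, Eno1 0.88, Mif -0.77), shares near the 26.3% and 27.3% called over all genes, heme, iron and antioxidant genes higher in 1 and lower in 6 of 11 (Txnrd1 0.44, Slc40a1 -1.37, Ftl1 -0.92), and dissociation and immediate early genes higher in 2 and lower in 7 of 12. The 2 higher were the heat shock genes Hspa1b (1.23) and Hspa1a (0.54), and Hspa1a was higher in monocytes in 6 of 8 mice.

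**Figure D4:**
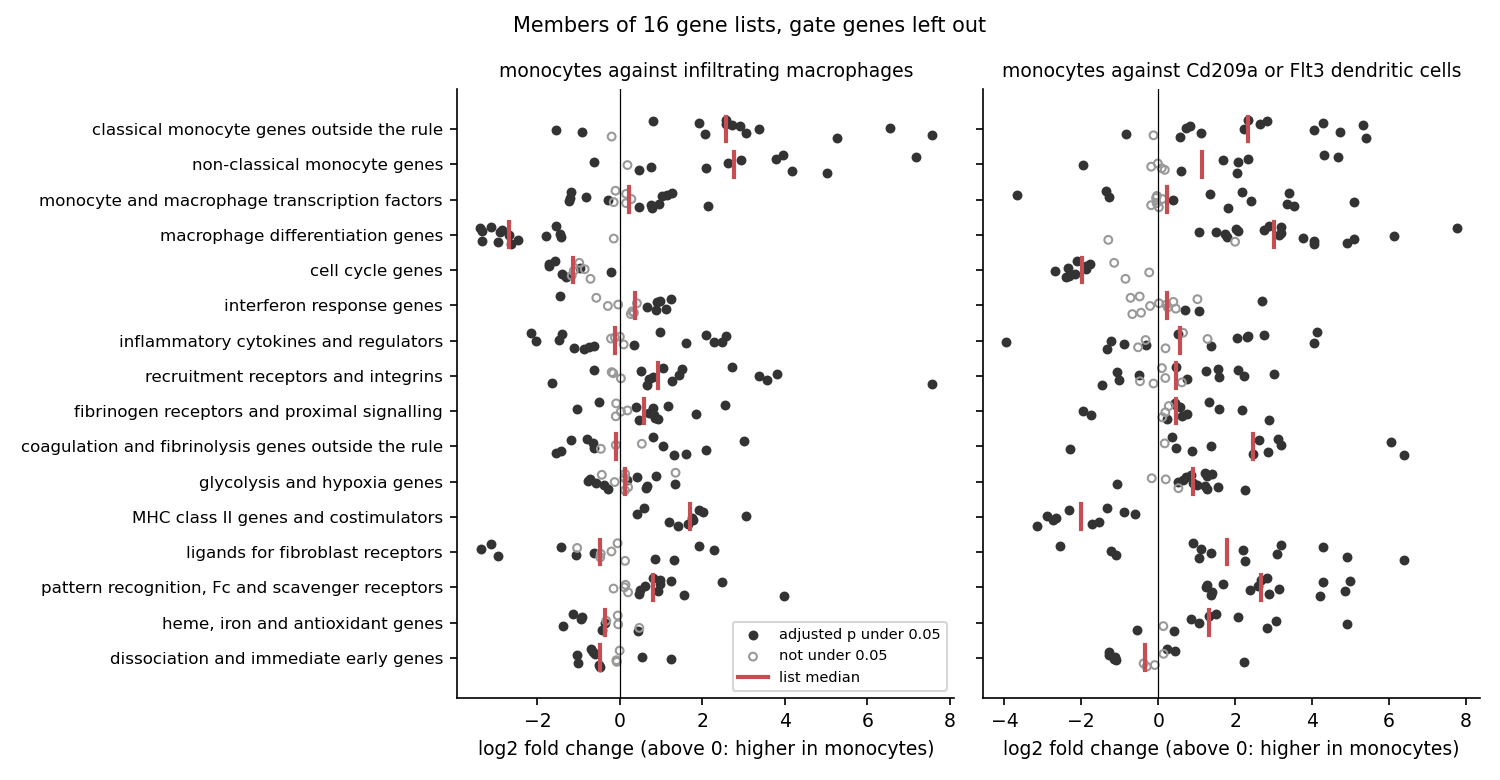
Log2 fold change of each tested member of 16 gene lists between monocytes and infiltrating macrophages (left) and dendritic cells (right). Filled points passed an edgeR adjusted p of 0.05, open points did not, and red bars are list medians, such as 1.71 on the left and -2.02 on the right for MHC class II genes.

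Dendritic cells with Cd209a or Flt3 shared Ccr2 and Plac8 with monocytes and were compared in the same way, again as a description of gated classes. Of 9594 genes tested 2304 (24.0%) were higher and 2371 (24.7%) lower in monocytes. Among the 10 largest higher in monocytes were Arg1, Thbs1, Gpnmb, Vcan, Hp, Ccl7, Fam20c, Clec4d and Slc11a1. Thbs1 had a lowest, median and highest level of 1046, 1711 and 2494 CPM in monocytes and 0, 12 and 63.2 CPM in dendritic cells (log2 fold change 6.40, SE 0.44). Slc11a1, a metal transporter of phagosomes, stood at 103, 155 and 174 CPM against 1.86, 4.97 and 7.29 CPM (4.90, SE 0.14). Neither of these overlapped.

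The 10 largest lower in monocytes were Il12b, Itgae, Klri1, Xcr1, Hepacam2, Ccr7, Epcam, Dcstamp, P3h2 and Clec9a, among which Xcr1, Itgae and Clec9a mark type 1 dendritic cells and Ccr7 and Il12b migratory ones. Ccr7 had a lowest, median and highest level of 0, 0.335 and 4.12 CPM in monocytes and 50.4, 115 and 256 CPM in dendritic cells, and Xcr1 one of 0, 0 and 4.12 CPM against 42.5, 72 and 133 CPM. All 10 genes of MHC class II and costimulation were lower in monocytes, with a median log2 fold change of -2.02, which is the opposite direction from the macrophage comparison. Cd74 stood at 1761, 3470 and 5406 CPM in monocytes and 11859, 16113 and 18774 CPM in dendritic cells, so for these genes monocytes lay between both classes.

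Macrophage differentiation genes were higher than in dendritic cells in 18 of 20 (median 3.00), all 15 receptors for patterns, antibodies and scavenged material were higher (2.68), and 11 of 13 coagulation and fibrinolysis genes were higher with 1, Procr, lower (2.47). F13a1 (3.11), Plau (3.18) and F5 (2.61) were among them. Classical monocyte genes were higher in 13 and lower in 1 of 15 (2.34). Non-classical genes were higher in 7 and lower in 1, the integrin subunit Itgax (-1.97), of 12. Heme, iron and antioxidant genes were higher in 9 and lower in 1 of 11, with Hmox1, heme oxygenase, at 3.06. Glycolysis genes were higher in 13 and lower in 1 of 17, and ligands of fibroblast receptors higher in 11 and lower in 3 of 14. Cell cycle genes were lower in 9 of 12 and higher in none. Transcription factor genes were higher in 9 and lower in 3 of 18, with Irf4 lowest at -3.68. Recruitment genes were higher in 8 and lower in 4 of 17, fibrinogen receptor genes higher in 10 and lower in 2 of 15, cytokine genes higher in 8 and lower in 5 of 18, interferon genes higher in 3 and lower in none of 14, and immediate early genes higher in 3 and lower in 5 of 12. Of all genes 24.0% were called higher, so the counts of higher interferon and immediate early genes lay near that share. The counts of lower recruitment, cytokine and ligand genes lay near the 24.7% of all genes called lower.

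The treatment comparison asked which genes differed between monocytes of ancrod and control mice. Of 8839 genes tested none passed an adjusted p of 0.05 in edgeR, neither higher (0%) nor lower (0%). At an unadjusted p under 0.05 there were 411, of which 151 were higher and 260 lower in ancrod mice, the smallest adjusted p was 0.430, and DESeq2 called 20 genes, all lower in ancrod mice. Without any difference such a p is met at a rate of about 0.05, and 411 of 8839 genes lay below that rate. The values of 105 genes (1.19%) were higher in ancrod mice without overlap between groups, and those of 170 genes (1.92%) were lower without overlap. Without any difference, 4 against 4 mice come apart in a given direction in 1 of 70 arrangements. Values of 10 genes follow, in each direction the 5 with the smallest unadjusted p among non-overlapping genes of at least 20 CPM, and every one of them missed the edgeR threshold.

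Atf3, a transcription factor of the stress response, stood at 785, 981, 891 and 840 CPM in control 1 to 4 and at 414, 493, 565 and 563 CPM in ancrod 1 to 4. All ancrod mice lay below all control mice (log2 fold change -0.79, SE 0.12, edgeR adjusted p = 0.430). Kpna4, an importin of nuclear transport, stood at 894, 739, 715 and 787 CPM against 473, 512, 542 and 532 CPM (-0.60, SE 0.10, edgeR adjusted p = 0.430). Tbc1d1, a regulator of glucose transporter traffic, stood at 179, 190, 192 and 160 CPM against 109, 127, 122 and 103 CPM (-0.64). Both groups were tight in these genes. The choice by non-overlap and small unadjusted p favoured such values, so they are no separate support. The difference of Atf3 was past the threshold in DESeq2 (adjusted p = 2.1e-05) and, after every cell had been thinned to 2000 UMIs, in edgeR too (log2 fold change -1.12, adjusted p = 0.0113), the single gene called in that setting.

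Hspa1a, an inducible heat shock chaperone, stood at 1167, 633, 427 and 533 CPM in control 1 to 4 and 196, 181, 312 and 125 CPM in ancrod 1 to 4 (-1.71, edgeR adjusted p = 0.495). Its neighbour Hspa1b stood at 1022, 548, 345 and 514 CPM against 141, 138, 267 and 130 CPM (-1.79, edgeR adjusted p = 0.495). Control 1, with the fewest cells, was the highest and ancrod 3 the highest of its group in both genes. Their coding sequences are 99.6% identical, but the last 300 bases of the transcripts are not (60.1% of 268 aligned bases), so reads from that stretch differ between them.

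In the other direction the 5 genes were low in level. Glo1, glyoxalase, stood at 21.2, 27.5, 21.7 and 23.7 CPM in control and 38.7, 33.8, 31.1 and 44.6 CPM in ancrod mice (log2 fold change 0.61). Ifi27 stood at 36.4, 32.1, 33.3 and 31.1 CPM against 44.2, 51.0, 47.9 and 37.8 CPM (0.48). Mtmr10, Scd2 and Bad had estimates of 0.76, 0.50 and 0.62. The edgeR adjusted p of each of the 5 was about 1.00, and DESeq2 gave no adjusted p for 4 of them and 0.776 for Scd2.

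**Figure D5:**
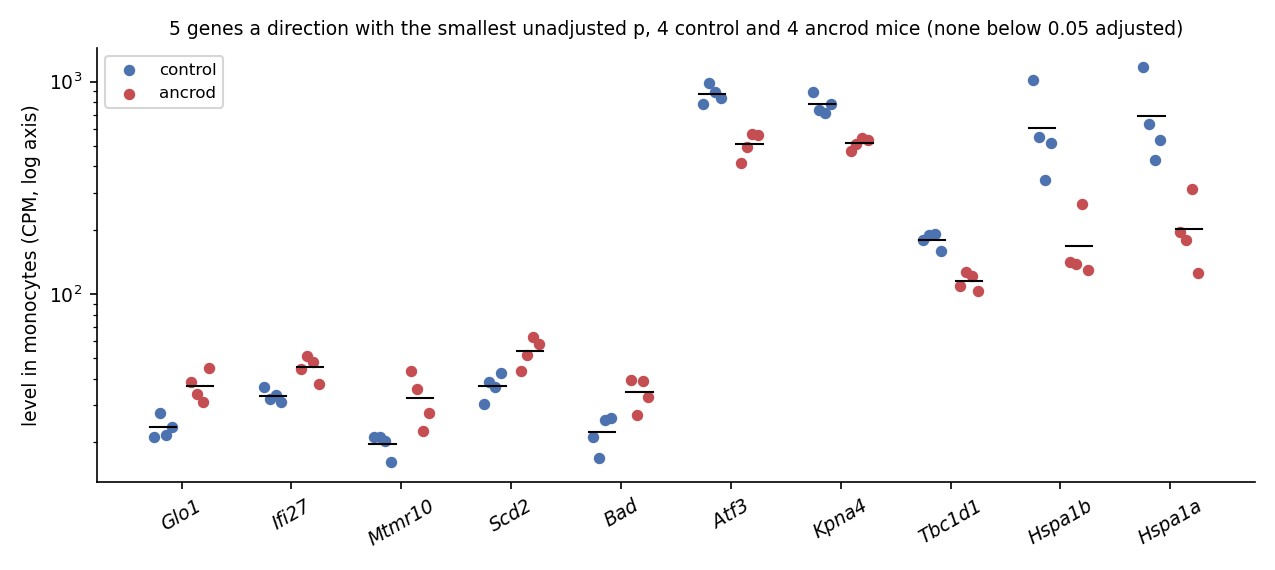
Levels in monocytes (CPM, log axis) of 10 genes, in each direction the 5 with the smallest unadjusted p among non-overlapping genes of at least 20 CPM, 4 control and 4 ancrod mice, with group means as bars. Atf3 falls between 785 and 981 CPM in control and 414 and 565 CPM in ancrod mice, and none of the 10 passed the adjusted threshold of edgeR.

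Of 12 dissociation and immediate early genes, which respond within minutes to enzyme digestion and stress of the tissue, 11 had estimates below 0 and 8 were lower in ancrod mice without overlap (the background share is 1.92%), with a median log2 fold change of -0.75 against 0.01 over all genes tested. None passed the threshold in edgeR, and 6 of the 20 genes called by DESeq2 belong to this list. Fos stood at 1119, 991, 1020 and 1605 CPM in control 1 to 4 and 640, 724, 840 and 592 CPM in ancrod 1 to 4. Jun stood at 576, 523, 576 and 515 CPM against 281, 514, 312 and 179 CPM, where ancrod 2 came near the control mice. Fosb went the other way, with an estimate of 0.56 and overlapping groups, and Ier2 stood at -0.03.

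Some other measured values also differed between the groups. Total UMIs of the libraries separated the groups, while the median UMIs per monocyte overlapped (12955 to 17553 in control and 15336 to 18057 in ancrod mice). With every cell thinned to 2000 UMIs the median of the list was -0.66. The astrocyte sum in monocytes, given above, had a median of 33.8 CPM in control and 103 CPM in ancrod mice. Free RNA was taken from droplets with at most 100 UMIs. There Hspa1b was at 388 to 569 CPM in control and 270 to 349 CPM in ancrod libraries, without overlap. Every other gene of the list overlapped between the groups in free RNA. Hspa1a was at 557 to 880 and 394 to 588 CPM, and Fos at 964 to 1225 and 811 to 1472 CPM. In monocytes outside the non-classical range 6 of the 12 genes were lower in ancrod mice without overlap, against 107 of all 8839 genes (1.21%). In infiltrating macrophages of the same libraries none of the 12 was, against 135 of 11203 genes (1.21%), at which share none of 12 is near the background, and 7 had a lower mean in ancrod mice, Hspa1a among them at 300 ± 88.4 CPM in control and 187 ± 58.7 CPM in ancrod mice (SD, n = 4 each). The part of depth, astrocyte RNA and free RNA in these values was not tested.

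Among the other genes that DESeq2 called, chosen here after their values had been seen, were chemokine and interleukin genes. Ccl7 stood at 655, 387, 314 and 199 CPM in control 1 to 4 and 152, 163, 157 and 124 CPM in ancrod 1 to 4 (log2 fold change -1.32, edgeR adjusted p = 0.518). Il1rn stood at 127, 180, 196 and 141 CPM against 70.5, 110, 51.1 and 61.8 CPM (-1.16, edgeR adjusted p = 0.495). Ccl2 was at 1170, 918, 682 and 493 CPM against 347, 316, 607 and 302 CPM, with overlap through ancrod 3 (-1.03). Ear2, a gene high in the non-classical range, was at 51.5, 66.0, 64.5 and 107 CPM against 22.2, 25.5, 28.3 and 51.5 CPM (-1.34, edgeR adjusted p = 0.517). The groups were apart in Ccl7 and Il1rn, and in Ear2 ancrod 4 lay just under control 1.

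All 12 non-classical genes had estimates below 0, from -0.68 to -0.13 with a median of -0.50, and none was free of overlap between groups. The median was -0.30 without control 4. Nr4a1 had the highest level of this list and also counts towards the non-classical range. Its part in the share of that range, with or without thinning, was not tested. Nor was its part in the values of immediate early genes in monocytes outside that range. Nr4a1 stood at 528, 429, 454 and 511 CPM in control and 247, 272, 330 and 475 CPM in ancrod mice. Adgre4 stood at 66.7, 88.4, 149 and 201 CPM against 72.9, 67.6, 79.9 and 130 CPM. In Nr4a1 ancrod 4 reached the control range, and in Adgre4 the groups overlapped widely.

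Cell cycle genes all had estimates above 0 (9 of 9, median 1.78), and these rested on 1 mouse. Mki67, a marker of dividing cells, stood at 6.06, 15.2, 10.2 and 27.4 CPM in control 1 to 4 and 15.5, 4.83, 121 and 36.0 CPM in ancrod 1 to 4, so that ancrod 3 stood above all others. Without ancrod 3 the median of the list was 0.112. Arg1, arginase, was at 9.10, 34.3, 25.7 and 15.0 CPM in control and 75.3, 210, 78.5 and 6.87 CPM in ancrod mice (2.01, edgeR adjusted p = 1.00), higher in 3 ancrod mice and lowest of all in the fourth. The mannose receptor Mrc1 had an estimate of 1.66.

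Genes for receptors of fibrinogen and the signalling next to them had 5 of 14 estimates above 0, a median of -0.09 and a range from -0.49 to 0.30, and none passed the test. Itgam stood at 233, 245, 296 and 226 CPM in control and 278, 251, 255 and 228 CPM in ancrod mice (log2 fold change 0.01, SE 0.12). Itgb2 had an estimate of -0.17, Tlr4 the highest of 0.30 and Itgav, an integrin subunit, the lowest of -0.49. For coagulation and fibrinolysis genes 7 of 12 estimates were above 0 with a median of 0.06, F13a1 among the lowest at 522, 454, 437 and 457 CPM against 441, 282, 348 and 251 CPM (-0.48, edgeR adjusted p = 1.00) and Thbs1 at 0.11.

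In the other lists too no gene passed edgeR. Estimates above 0 were 8 of 15 for classical genes (median 0.02), 7 of 20 for macrophage differentiation genes (-0.07), 14 of 17 for glycolysis genes (0.09), 1 of 10 for MHC class II genes (-0.21), 3 of 14 for interferon genes (-0.31), 2 of 17 for transcription factors (-0.21) and 7 of 18 for cytokine genes (-0.12). They were 6 of 17 for recruitment genes (-0.06), 4 of 13 for ligands of fibroblast receptors (-0.06), 7 of 15 for pattern and scavenger receptors (-0.00) and 3 of 11 for heme and iron genes (-0.14).

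Whether the ancrod effect differed between monocytes and infiltrating macrophages was tested directly with an interaction term, with the mouse as a block. Of 11203 genes none passed in edgeR, higher (0%) or lower (0%), and the smallest adjusted p was 0.557. In edgeR 435 had an unadjusted p under 0.05, also below the rate of 0.05 met without any difference. DESeq2 called 4, Cd36, Hspa1a, Hspa1b and Osm. Cd36, a scavenger receptor, stood in monocytes at 272, 374, 365 and 243 CPM in control 1 to 4 and 167, 258, 244 and 150 CPM in ancrod 1 to 4. In macrophages it stood at 95, 92.3, 151 and 51.8 CPM against 150, 169, 310 and 111 CPM. The group means were thus lower in ancrod mice in one class and higher in the other, with overlap in both (difference of log2 fold changes -1.56, SE 0.25, edgeR adjusted p = 0.557). For Osm, oncostatin M, monocytes averaged 128 ± 37.6 CPM in control and 64.8 ± 20.3 CPM in ancrod mice and macrophages 130 ± 32.8 and 143 ± 25 CPM (SD, n = 4 each, edgeR difference -1.14, adjusted p = 0.807). Kpna4 and Tbc1d1, lower without overlap in monocytes of ancrod mice, were so in macrophages too, at 414 ± 78.3 against 332 ± 23.8 CPM and at 79.9 ± 3.21 against 70.3 ± 5.63 CPM.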

How the data were processed

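Single cells of 8 mice were profiled with 10x Genomics 3′ chemistry. Per the labels and methods the authors ran Cell Ranger 7.1.0, which aligns with STAR, on GRCm39 (mm39) and counted exonic and intronic reads. They deposited UMI counts per gene and droplet, whole numbers without normalization, with every droplet kept. Where symbols repeat, the gene with most UMIs took the symbol.

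Droplets were gated as the report describes, and doublets were removed only as an alternative, at 0.8% per 1000 cells (17 of the 966 monocytes). The rule, the lists and the members were chosen with earlier results of these data known. Infiltrating macrophages, dendritic cells, microglia, neutrophils and endothelial cells were gated likewise from fixed genes.

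UMIs were summed per mouse and class, kept by filterByExpr, scaled by TMM factors and fitted in edgeR 4.0.16 (glmQLFTest, R 4.3.3), with DESeq2 1.42.0 as an alternative. The 10 genes of the rule left after the filter were not counted in the treatment comparison, nor were 17 and 14 gate genes in the class comparisons. The procedure was tested on simulated data. Shares were compared with exact permutation tests over mice. p-values measure the spread between mice, 1 library each. Named were, for treatment, the 5 falls and 5 rises with the smallest unadjusted p among non-overlapping genes of at least 20 CPM, since none passed 0.05. For classes they were the 10 largest differences each way among genes past 0.05, with at least 50 CPM and 1 direction in all mice, and from 16 lists the called genes and the 3 highest. Same-numbered mice did not deviate together (correlations of -0.181, -0.0863, -0.0701 and 0.110), so the numbers were not used as pairs. Alternatives were a minimum of 5000 UMIs, 4 of 5 markers, no doublets, another test, scaling or filter, thinning to 2000 UMIs (20 other draws for the ranges), batch terms and each mouse left out. Coding sequences and coordinates came from the GENCODE annotation of GRCm39. Igkc and Trac were not analysed here. Some members of the lists are counted in them but not reported here by name.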

Additional observations from a re-analysis of the deposited data

Results flagged for a closer look

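In 6 of 66 groups of 4 mice the highest or lowest mouse lay far from the other 3, where chance gives about 1 in 20 groups. For Hspa1b in ancrod mice, ancrod 3 stood at 267 CPM and the others at 130 to 141 CPM. For Chil3 in ancrod mice, ancrod 1 stood at 1220 CPM and the others at 434 to 492 CPM. Summed markers of other cells in monocytes gave the other 4. Astrocyte genes were at 148 CPM in control 2 against 23.8 to 38.6 CPM in the other control mice, and at 305 CPM in ancrod 2 against 95.5 to 107 CPM in the other ancrod mice. Endothelial genes were at 634 CPM in control 3 against 80.3 to 142 CPM, and oligodendrocyte genes at 38.6 CPM in ancrod 2 against 59.7 to 61.9 CPM. The part of these in the results was not tested.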

How the results depend on the processing

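The share of monocytes among kept droplets differed by 0.048 points between the groups, and its sign depended on the setting: -0.0072 with 4 of 5 markers, -0.150 without microglia in the denominator, and -0.807 to 0.643 with 1 mouse left out (below 0 without control 1, control 4 or ancrod 1). The share among monocytes plus macrophages ranged from -14.4 to -3.27 points with 1 mouse left out. With 1 mouse left out the macrophage range differed by -6.28 to 1.32 points, the interferon range by -2.86 to 2.64 and the MHC class II range by -9.57 to 0.669. The signs changed without ancrod 4 in the first, without control 4 or ancrod 3 (0.172) in the second and without control 1 in the third. Without thinning the macrophage range differed by 2.22 points. In 20 other draws of the thinning, added after the data were seen, the non-classical range differed by -10.1 to -0.753 points and the macrophage range by -4.97 to 1.08. The treatment comparison called 0 genes in edgeR, with 1 mouse left out as well, against 20 in DESeq2 and 1, Atf3, with cells thinned to 2000 UMIs, where 3345 genes were tested. The interaction called 4 genes in DESeq2 and 1, Cd36, without a filter on low counts, against 0. The cause of these differences was not tested. Monocytes and macrophages differed in 6002 genes, in 2398 of 5379 tested after thinning and in 5305 to 5967 with 1 mouse left out, and monocytes and dendritic cells in 4199 to 4790. The replicate block gave 0 treatment genes and exact permutation p of 1 and 0.625 for both shares. Its 16 sign flips cannot give a p below 0.125, so no share or range could have been called under it. Control 1 held 25 monocytes, the fewest.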
